A study of Rattus norvegicus with 32 samples.

Results

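The genes described here encode the subunits of voltage-gated calcium and sodium channels of the rat. They were chosen by name: every row of the deposited count table whose symbol starts with Cacna, Cacnb or Cacng and a number, or is Scn with a number and the letter a or b. This gave 40 of the 34322 gene symbols in the table, 26 of calcium channels and 14 of sodium channels. The rule uses symbols and no measured value, but the family was picked with earlier results of these data known.

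Both channel families open when the membrane depolarises. Each is built on 1 large pore-forming subunit, which the Scn genes ending in a and the Cacna1 genes encode, and on smaller auxiliary subunits that set how many channels reach the membrane and how they gate. Sodium channels carry the upstroke of the action potential, and calcium channels couple firing to transmitter release, to dendritic signalling and to transcription. In the striatum, to which the nucleus accumbens belongs, both families shape the firing of medium spiny neurons, the GABA-releasing projection neurons that make up most of its neurons.

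The samples were bulk RNA from the nucleus accumbens shell of wild-type rats, 32 libraries in 4 groups of 8. All groups went through a shock conditioning protocol, with lemon odour as the anxiety cue in 2 groups and a neutral cue in the rest, and each cue was presented again during anxiety tests that followed a dose of cannabidiol (CBD) or of vehicle. The treatment labels are veh_nocue (vehicle, neutral cue), cbd_nocue (CBD, neutral cue), veh_cue (vehicle, anxiety cue) and cbd_cue (CBD, anxiety cue). The sources used here do not give strain, sex, age, dose or the time between dose and dissection. The labels do not say that each library is a separate rat, so a p-value here measures only the spread between these libraries. Library numbers within a group follow the order of deposition and pair nothing.

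Total counts were 11.65 M to 24 M per library, and the 40 channel genes took 0.446 to 0.622% of them. Levels are given as CPM, counts scaled to a library total that is the same for all libraries, and are not comparable between genes, since no gene lengths were used. The libraries differed in markers of tissue makeup. All 12 markers of medium spiny neurons were detected in every group, but their summed level ran from 1534 to 7870 CPM with vehicle and the neutral cue, against 5726 to 8115 with CBD and the neutral cue, 1867 to 9109 with vehicle and the anxiety cue and 2829 to 9327 with CBD and the anxiety cue. Slc17a6, the vesicular glutamate transporter of many subcortical neurons, measured 20 to 47 CPM in 6 libraries, while the other 26 reached no more than 16.8 CPM. The vehicle neutral-cue group held 3 of them (libraries 4, 7 and 8), the vehicle anxiety-cue group 1 (library 5) and the CBD anxiety-cue group 2 (libraries 2 and 7). In the same 6, the dopamine receptor gene Drd1 was at 57.3 to 183 CPM, against 258 to 459.9 CPM in the rest. Slc17a7, the transporter of cortical glutamatergic neurons, reached 877 CPM in CBD neutral-cue library 6, the only library at 100 CPM or more. Plin1, a fat-cell gene, was at 5 CPM or more in 5 vehicle neutral-cue, 3 vehicle anxiety-cue and 2 CBD anxiety-cue libraries, and Alb, a liver gene, at 20 CPM or more in 4 CBD neutral-cue, 2 vehicle anxiety-cue and 4 CBD anxiety-cue libraries. In bulk tissue, fewer cells of a type and less RNA per cell cannot be told apart.

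Of the 40 genes, 37 had enough counts to be tested. The 3 that did not were Scn10a, a channel of pain-sensing neurons (171 counts over all libraries), Cacna1f, the calcium channel of photoreceptors (221 counts), and Cacng1, the gamma subunit of skeletal muscle (161 counts). Among those tested, Cacna1s, the skeletal muscle pore, Scn11a, another channel of pain-sensing neurons, and Scn4a, the skeletal muscle sodium channel, had at most 18, 18 and 22 counts in any library, so their values rest on few reads. The spread of the other members across libraries was unequal. The highest library was 1.41 times the lowest for Scn2b and 1.64 times for Scn3a, but 10.4 times for Scn4b and 4.80 times for Cacna1g. Scn7a, at 6 to 166 counts per library, spanned 18.3 times.

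**Figure D1:**
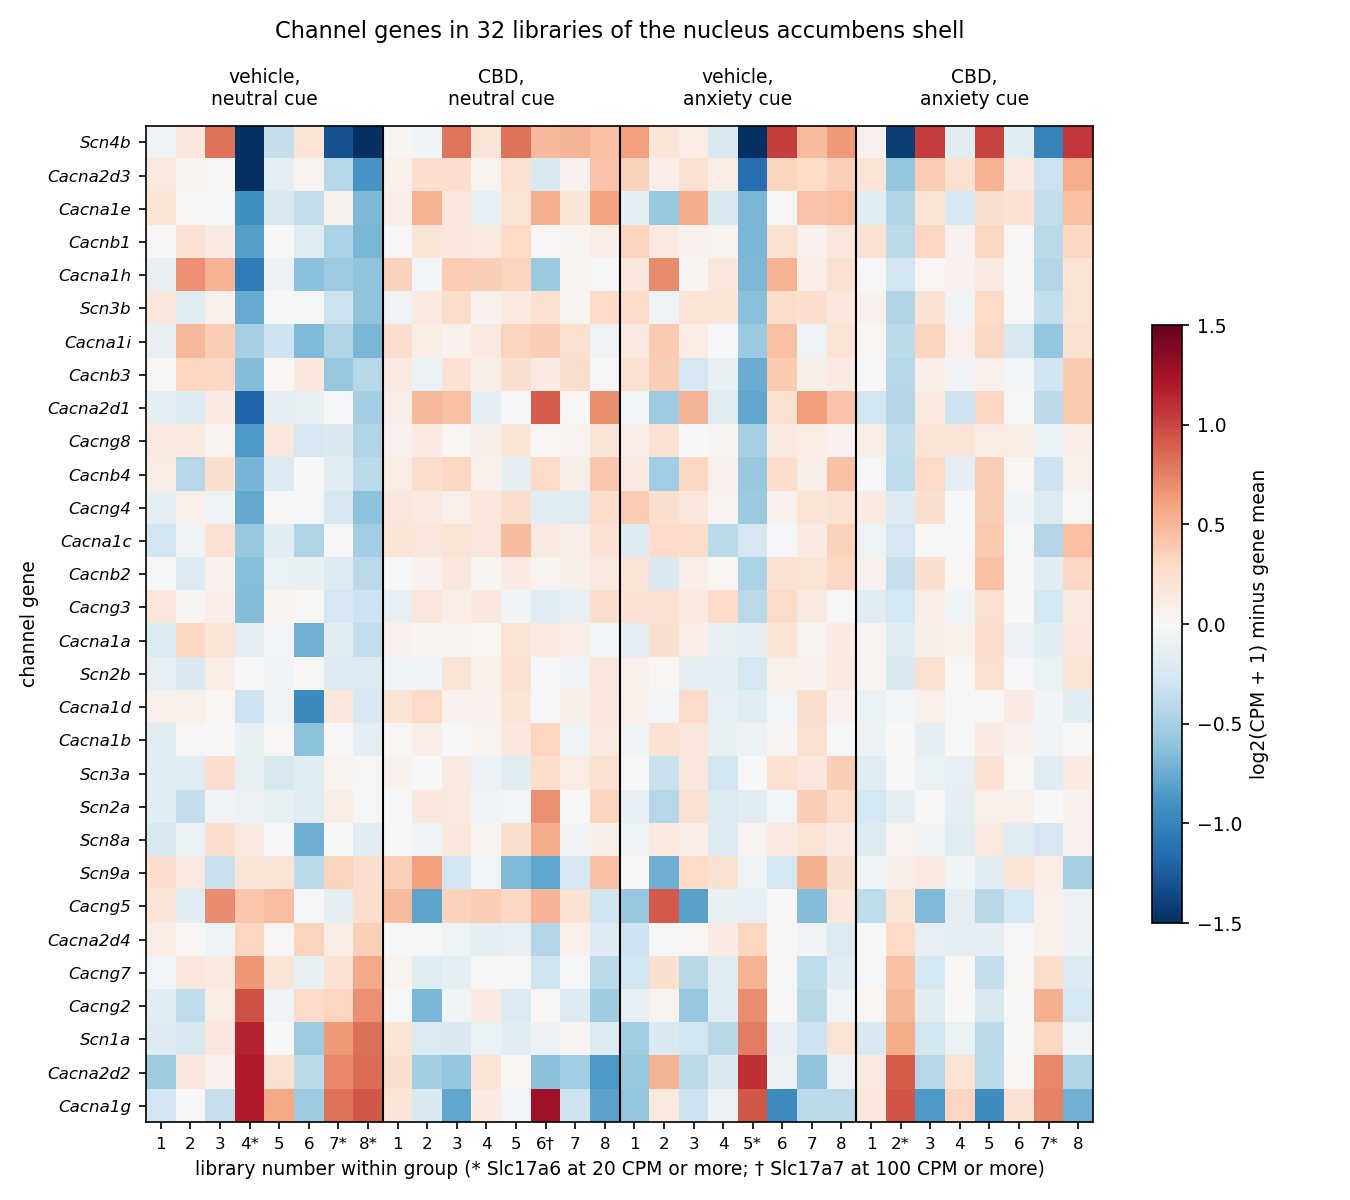
Level of 30 channel genes (rows, among those with a median of at least 5 CPM) in the 32 libraries (columns, in their 4 groups), coloured by log2(CPM + 1) minus the gene's mean. Genes are ordered by the ratio of their median in the 6 libraries marked with a star (Slc17a6 at 20 CPM or more) to that in the other 26; these columns are blue at the top of the map, from Scn4b, and red at the bottom, to Cacna1g.

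A pattern shared by many of the channel genes followed the 6 libraries high in Slc17a6, which span 3 of the 4 groups. These libraries were picked by the level of Slc17a6 and not by a label, so the values are a description with no test. In these 6, 7 channel genes lay below all of the other 26 libraries and 4 lay above all of them. Over all 17059 genes tested, the shares were 2.87% below and 4.71% above, and here they were 18.9% and 10.8% of the 37. A further 26 members overlapped. In all 6 libraries, 19 members were below the median of the other 26 and 11 were above it, beside 19.8% and 27.7% of all genes tested, so the number above lay near the background.

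Among the auxiliary sodium channel subunits, the ratios of medians, the 6 libraries over the other 26, were 0.273 for Scn4b, 0.626 for Scn3b and 0.848 for Scn2b. Scn4b encodes the beta4 subunit, which is abundant in medium spiny neurons and is known for its part in resurgent sodium current. Its level was 72.8 to 180.3 CPM in the 6 libraries and 283 to 761 CPM in the other 26. By group, the lowest, median and highest Scn4b levels were 72.8, 315 and 637 CPM with vehicle and the neutral cue and 346, 500.1 and 641 CPM with CBD and the neutral cue. With the anxiety cue they were 92.8, 458 and 744 CPM in vehicle and 135, 353 and 761 CPM in CBD. The lowest Scn4b libraries in each of 3 groups were those high in Slc17a6, and the CBD neutral-cue group held none of these. Scn3b, the beta3 subunit, was at 195 to 264 CPM in the 6 libraries and 296 to 406 CPM in the rest, again without overlap. Scn2b, the disulphide-linked beta2 subunit, was far steadier, at 400.1 to 472 CPM in the 6 libraries and 415 to 564 CPM in the others.

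Scn2b and Scn4b are neighbours on chromosome 8, with 0 protein-coding genes between them in the RefSeq order of the assembly GRCr8, and yet their medians in the 6 libraries were 0.848 and 0.273 of those in the other 26. Their upstream sequences are shown to set this pair side by side, with those of Cacna2d3 and Cacna2d2, related subunits that lay below and above all other libraries. Each is the 250 bases before the annotated start of the gene in RefSeq, GRCr8, 5′ to 3′ on the gene's own strand. Capitals mark the GC box GGGCGG on either strand, a motif that Sp-family factors are known to bind.
Scn2b (chr8:54322133-54322382, plus strand): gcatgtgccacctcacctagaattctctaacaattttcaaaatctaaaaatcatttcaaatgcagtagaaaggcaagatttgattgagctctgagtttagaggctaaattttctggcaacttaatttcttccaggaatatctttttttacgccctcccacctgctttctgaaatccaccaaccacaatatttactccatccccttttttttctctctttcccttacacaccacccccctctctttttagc
Scn4b (chr8:54343623-54343872, plus strand): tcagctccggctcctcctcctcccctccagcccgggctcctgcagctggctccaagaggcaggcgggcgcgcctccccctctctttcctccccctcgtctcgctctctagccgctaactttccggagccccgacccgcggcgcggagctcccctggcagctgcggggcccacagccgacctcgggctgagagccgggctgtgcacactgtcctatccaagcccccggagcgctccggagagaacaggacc
Cacna2d3 (chr16:4918900-4919149, minus strand): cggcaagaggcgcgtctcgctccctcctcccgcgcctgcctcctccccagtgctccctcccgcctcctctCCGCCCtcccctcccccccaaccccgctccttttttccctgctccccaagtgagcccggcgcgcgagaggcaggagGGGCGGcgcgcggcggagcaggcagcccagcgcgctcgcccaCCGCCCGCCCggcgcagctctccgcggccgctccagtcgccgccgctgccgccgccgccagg
Cacna2d2 (chr8:116950856-116951105, plus strand): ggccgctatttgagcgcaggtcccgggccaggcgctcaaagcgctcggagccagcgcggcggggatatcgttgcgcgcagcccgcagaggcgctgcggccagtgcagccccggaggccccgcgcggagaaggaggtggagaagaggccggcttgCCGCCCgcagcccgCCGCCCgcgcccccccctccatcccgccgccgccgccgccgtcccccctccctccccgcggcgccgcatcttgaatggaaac
The 4 differed in base composition: G and C made up 38.8% of the Scn2b window, 71.6% of that of Scn4b, 78.8% of that of Cacna2d3 and 76.8% of that of Cacna2d2. Neither Scn2b nor Scn4b held a GC box in this window, Cacna2d3 held 4 and Cacna2d2 held 2. Over the 27 channel genes with an entry in the promoter table, 13 (48.1%) held at least 1 GC box, against 32.4% of 27457 promoters of the same length. The median GC content was 62.8% for the members and 52% for all. The cAMP response element TGACGTCA, searched on both strands, was in 0 of the 27 and in 1.7% of all promoters. Its shorter form TGACG, which lies within it, was in 14.8% and 19%, and the TATA box TATAAA in 7.41% and 13.1%. These are matches of letters and not evidence of binding. The sources used here do not say whether counting used strand, so reads of genes that overlap or lie antisense to a channel gene cannot be told apart from its own.

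The pore-forming sodium channels of central neurons differed among themselves. Scn1a, known mainly from fast-spiking interneurons and from its loss in epilepsy, was at 187 to 336 CPM in the 6 libraries high in Slc17a6 and 103 to 173 CPM in the other 26. By contrast, Scn8a and Scn2a, the main channels of the axon initial segment of excitatory and projection neurons, and Scn3a, best known from the developing brain, had ratios of medians of 1.002, 0.983 and 0.966. The chromosomal neighbours Scn2a and Scn1a, with 4 protein-coding genes between them on chromosome 3, thus differed here. Scn7a, a sodium-sensing channel of glia and of sensory circumventricular organs, was at 2.62 to 8.10 CPM in the 6 libraries and 0.442 to 2.23 CPM in the rest.

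Across the groups, Scn8a levels were 189.6, 302 and 376 CPM (lowest, median, highest) with vehicle and the neutral cue and 301, 330.1 and 463 CPM with CBD and the neutral cue. With the anxiety cue they were 273, 340.2 and 362 CPM in vehicle and 265, 292 and 349.9 CPM in CBD. All 4 groups overlapped, and single libraries set both extremes: vehicle neutral-cue library 6 was the lowest of all and CBD neutral-cue library 6, the one high in Slc17a7, the highest. Scn2a ran from 219 CPM in a vehicle anxiety-cue library to 473 CPM in the same CBD neutral-cue library. Scn9a, known from peripheral pain-sensing neurons, was at 8.73 to 24.6 CPM, and its medians per group were 14.1 to 17.9 CPM.

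Among the calcium channel pores, Cacna1b and Cacna1a varied little, the highest library being 1.92 and 2.05 times the lowest. Cacna1b, the N-type channel of presynaptic terminals, had lowest, median and highest levels of 110, 162 and 171 CPM with vehicle and the neutral cue and 159.8, 178 and 212 CPM with CBD and the neutral cue. In vehicle and CBD with the anxiety cue they were 156, 170.3 and 198 CPM and 154, 168 and 185 CPM. The groups overlapped, and vehicle neutral-cue library 6 stood below the other libraries of its group, which began at 148 CPM. The same library was the lowest of all 32 in Cacna1a, the P/Q-type channel (111 CPM), in Cacna1d, an L-type channel that opens at low voltage (56.9 CPM), and in Scn8a. Its Slc17a6, Slc17a7, Plin1 and Alb levels were all below the limits given above.

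Cacna1c, the main L-type channel of forebrain neurons, which links calcium entry to gene transcription, was at 38.8, 49.4 and 67.7 CPM with vehicle and the neutral cue and at 62, 65.8 and 81.1 CPM with CBD and the neutral cue. The anxiety-cue groups were at 43.7, 60.1 and 74.2 CPM with vehicle and 42.5, 57.4 and 79.6 CPM with CBD. Of the vehicle neutral-cue libraries, 7 lay below every CBD neutral-cue library, and library 3 (67.7 CPM) lay within their range. Cacna1e, the R-type channel, was at 229.6 to 502 CPM in the former group and 398 to 659 CPM in the latter.

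The T-type channels, which open near rest and support burst firing, did not vary together. Cacna1g was at 74.6 to 102 CPM in the 6 libraries high in Slc17a6. In the other 26 it was at 22.4 to 107.5 CPM, where the top value came from the library high in Slc17a7 and the next was 66.6 CPM. Cacna1h and Cacna1i lay the other way, each below the median of the other 26 in all 6 libraries, with ratios of medians of 0.618 and 0.631. Medians of Cacna1g by group were 55.3 CPM with vehicle and 40.2 CPM with CBD at the neutral cue, and 34.4 CPM with vehicle and 50.6 CPM with CBD at the anxiety cue.

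**Figure D2:**
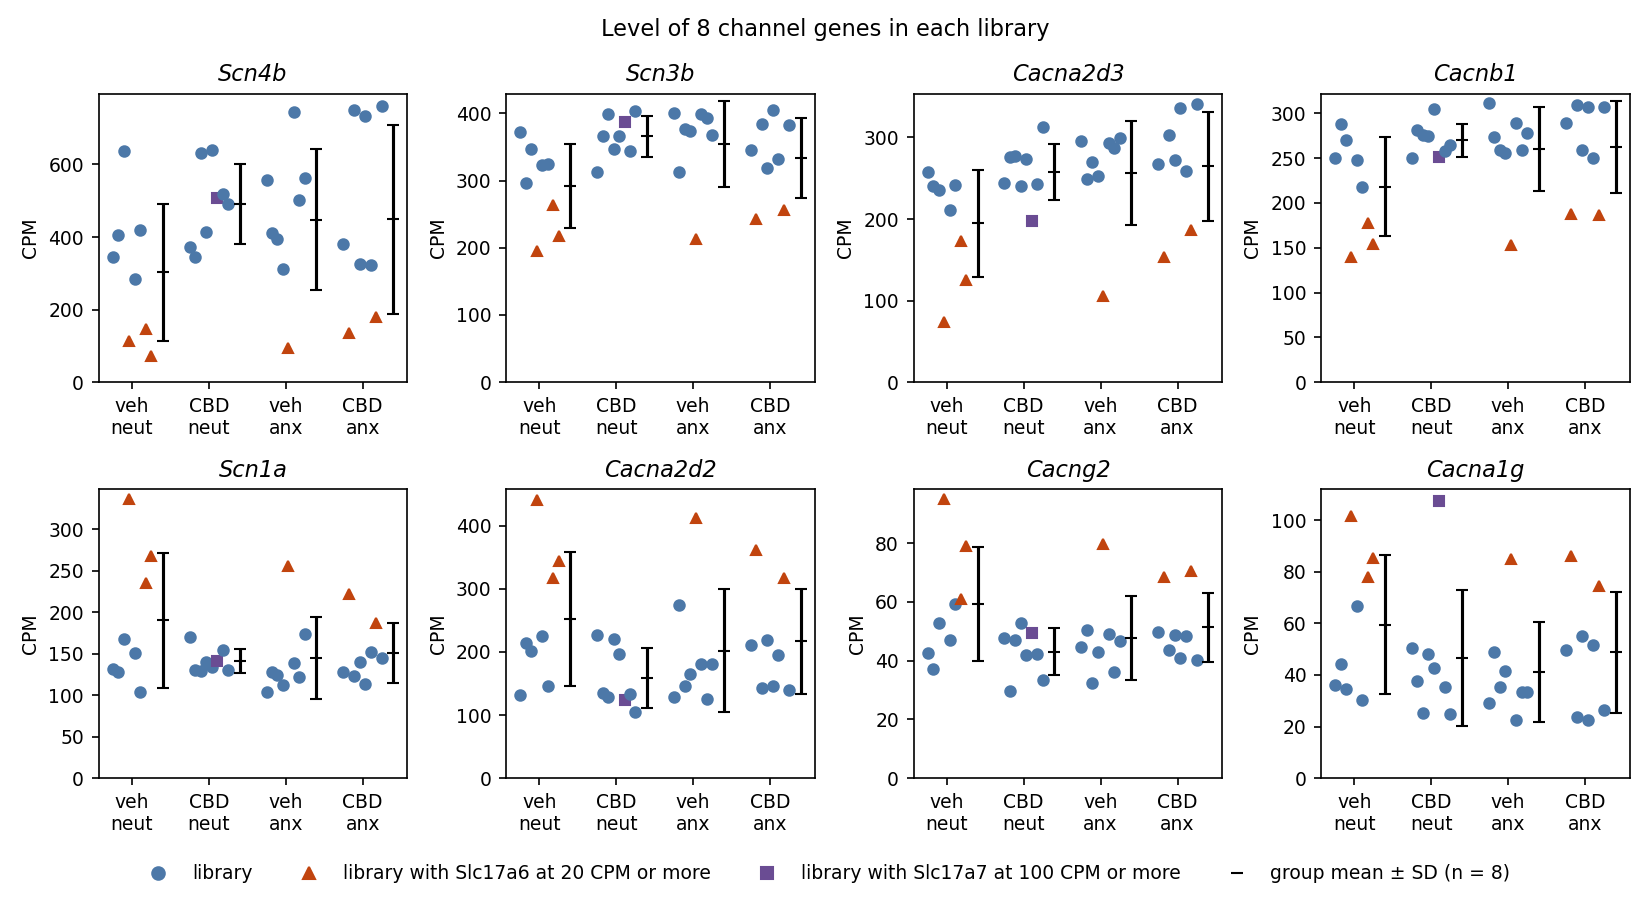
CPM of 8 channel genes in each library (points) by group, with the group mean and SD beside it (n = 8). Triangles are the 6 libraries high in Slc17a6 and squares the 1 high in Slc17a7; the triangles sit lowest for Scn4b, Scn3b, Cacna2d3 and Cacnb1 and highest for Scn1a, Cacna2d2 and Cacng2.

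The alpha2delta subunits, extracellular proteins that carry the pore to the synapse and, in the case of alpha2delta1 and alpha2delta2, bind gabapentin, went in opposite directions between libraries. Cacna2d3 was at 74.0 to 186 CPM in the 6 libraries and 197 to 341 CPM in the other 26, while Cacna2d2 was at 317 to 440.3 CPM against 105 to 274 CPM. By group, Cacna2d3 had lowest, median and highest levels of 74.0, 224 and 257 CPM with vehicle and the neutral cue and 197, 259 and 312 CPM with CBD and the neutral cue, and with the anxiety cue 106, 279 and 299.6 CPM in vehicle and 154, 269 and 341 CPM in CBD. Cacna2d1 reached 149 CPM in the library high in Slc17a7 and was lowest, at 33.6 CPM, in vehicle neutral-cue library 4. Cacna2d4, known mainly from the retina, was narrow, at 15.9 to 28.4 CPM, with medians of 23.6, 20.3, 21.6 and 20.96 CPM in vehicle and CBD with the neutral cue and in vehicle and CBD with the anxiety cue.

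The beta subunits, which lie inside the cell and bring the pore to the membrane, were each below the median of the other 26 in all 6 libraries. Cacnb1 was at 139 to 187 CPM against 217 to 312 CPM, and Cacnb3 at 92.8 to 127 CPM against 131 to 205 CPM, both without overlap. Cacnb2 and Cacnb4 overlapped, with ratios of medians of 0.733 and 0.709. In Cacnb2 the 8 CBD neutral-cue libraries lay within 81.5 to 91.8 CPM, while the vehicle neutral-cue libraries ran from 52.4 to 86.1 CPM and 2 of them reached the CBD range.

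Most genes named gamma in the brain encode TARPs, proteins that traffic and gate AMPA-type glutamate receptors. Cacng2, or stargazin, was at 60.9 to 95.0 CPM in the 6 libraries and 29.7 to 59.3 CPM in the rest. Cacng3 (25.0 to 33.3 against 35.4 to 49.1 CPM) and Cacng4 (35.3 to 52.7 against 53.0 to 79.2 CPM) lay the other way. Adjacent genes of this family again differed. Cacng8 and Cacng7 on chromosome 1 had ratios of medians of 0.697 and 1.48, and Cacng4 and Cacng5 on chromosome 10 of 0.710 and 1.14. Cacng6, a subunit of muscle, had only 6 to 67 counts per library.

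The library high in Slc17a7 also stood out in single genes. It was above all 31 others in Cacna1b, Cacna1g, Cacna2d1, Scn2a, Scn4a and Scn8a, and below all in Cacna2d4 and Scn9a. These are 6 and 2 of 37 members, beside 6.54% and 10.4% of all genes tested.

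The first comparison asked what CBD did with the neutral cue. Median levels in the CBD and vehicle groups were 500.1 and 315 CPM for Scn4b, 497 and 397 CPM for Cacna1e, 95.7 and 71.9 CPM for Cacna2d1 and 65.8 and 49.4 CPM for Cacna1c. They lay the other way, at 134 and 219.6 CPM for Cacna2d2 and 44.7 and 56.0 CPM for Cacng2. None of these differences passed the test over all genes in edgeR, and the genes given here by their medians, as in the next comparisons, were picked after their values were seen. With edgeR's quasi-likelihood test, 0 of 37 channel genes and 0 of 17059 genes (0%) passed an adjusted p of 0.05. At an unadjusted p under 0.05 there were 23 members, 17 higher and 6 lower with CBD, where all genes gave 22.6% (10.5% higher and 12% lower). The median log2 fold change of the members was 0.21, against 0.0055 for all genes, and 24 of 37 lay above 0, against 50.9%. For 0 of 37 members did the 2 groups fail to overlap, and 0.111% of all genes had groups apart. The 3 members with the smallest p were Cacna1c (log2 fold change 0.46, SE 0.13, edgeR adjusted p = 0.0916), Cacna1b (0.25, SE 0.076, edgeR adjusted p = 0.104) and Cacna2d4 (-0.26, SE 0.081, edgeR adjusted p = 0.11).

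In the same comparison DESeq2's Wald test called 1 member, Cacna1c, at 0.46 (SE 0.13, adjusted p = 0.0392), where it called 2.05% of all genes. Voom with quality weights called 0, with 20 at an unadjusted p under 0.05 (20.3% of all genes). In edgeR, Scn4b was at 0.72 (SE 0.39, adjusted p = 0.257), Cacna2d3 at 0.43 (SE 0.21, adjusted p = 0.214), Scn1a at -0.39 (SE 0.19, adjusted p = 0.216) and Cacna1g at -0.31 (SE 0.32, adjusted p = 0.567). These 4, and Cacna1d below, were singled out after their values were seen. The 4 are genes that followed the Slc17a6 libraries, of which the vehicle neutral-cue group held 3 and the CBD neutral-cue group 0. Since they followed these libraries, a shift when the libraries are left out is no test of a cause. The cause of their fold changes was not tested.

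Without the 7 libraries high in Slc17a6 or Slc17a7, edgeR called 0 members, and 4 higher and 1 lower had an unadjusted p under 0.05 (10.1% of all genes), and the median was 0.12. There, Scn4b was at 0.23, Cacna2d3 at 0.17 and Scn1a at 0.056, while Cacna1c was at 0.36, Cacna1b at 0.21 and Cacna1d at 0.28. With the mean levels of 4 marker lists (subcortical, cortical, oligodendrocyte and choroid plexus) as covariates, 0 members were called, 1 was at an unadjusted p under 0.05 (5.32% of all genes), and the median was 0.029. In that fit Cacna1d was at 0.23 and Cacna1c at 0.23, close to each other, while Scn4b was at -0.17. Both fits kept vehicle neutral-cue library 6, at 56.9 CPM in Cacna1d, where the others of its group ran from 89.6 CPM to 124 CPM with all libraries. The summed level of 5 subcortical markers was 39.7 to 178 CPM in the vehicle and 26.4 to 78.1 CPM in the CBD neutral-cue group, and none of their genes was at 0. The 8 oligodendrocyte markers were at 7694 to 11520 and 3642 to 8271 CPM. All 8 were lower with CBD at an unadjusted p under 0.05, beside 12% of all genes. Both lists are among the 4 covariates, so that fit adjusts for marker levels that themselves differed between these groups. Whether it also removed part of a CBD effect was not tested.

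Single libraries mattered as well, in both directions. Without vehicle neutral-cue library 3, 26 members were at an unadjusted p under 0.05 (27.3% of all genes). Leaving out vehicle neutral-cue library 4 took the members at an unadjusted p under 0.05 from 23 to 15, and all genes from 22.6% to 14%. It took Scn1a from -0.39 to -0.22 and Cacna1g from -0.31 to -0.15. Without CBD neutral-cue library 6, Cacna1g was at -0.63. Without the 10 libraries high in Alb, 0 members were called, 16 were at an unadjusted p under 0.05 (14.5% of all genes) and the median was 0.25. Without the 10 libraries high in Plin1, 13 members were called, 9 higher and 4 lower, beside 15.7% of all genes. Only vehicle neutral-cue libraries 6, 7 and 8 are then left of their group, and 7 and 8 are high in Slc17a6. With the composition covariates added to that fit, an alternative chosen after seeing the data, 0 members were called, 8 were at an unadjusted p under 0.05 (14.3% of all genes) and the median was 0.060.

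**Figure D3:**
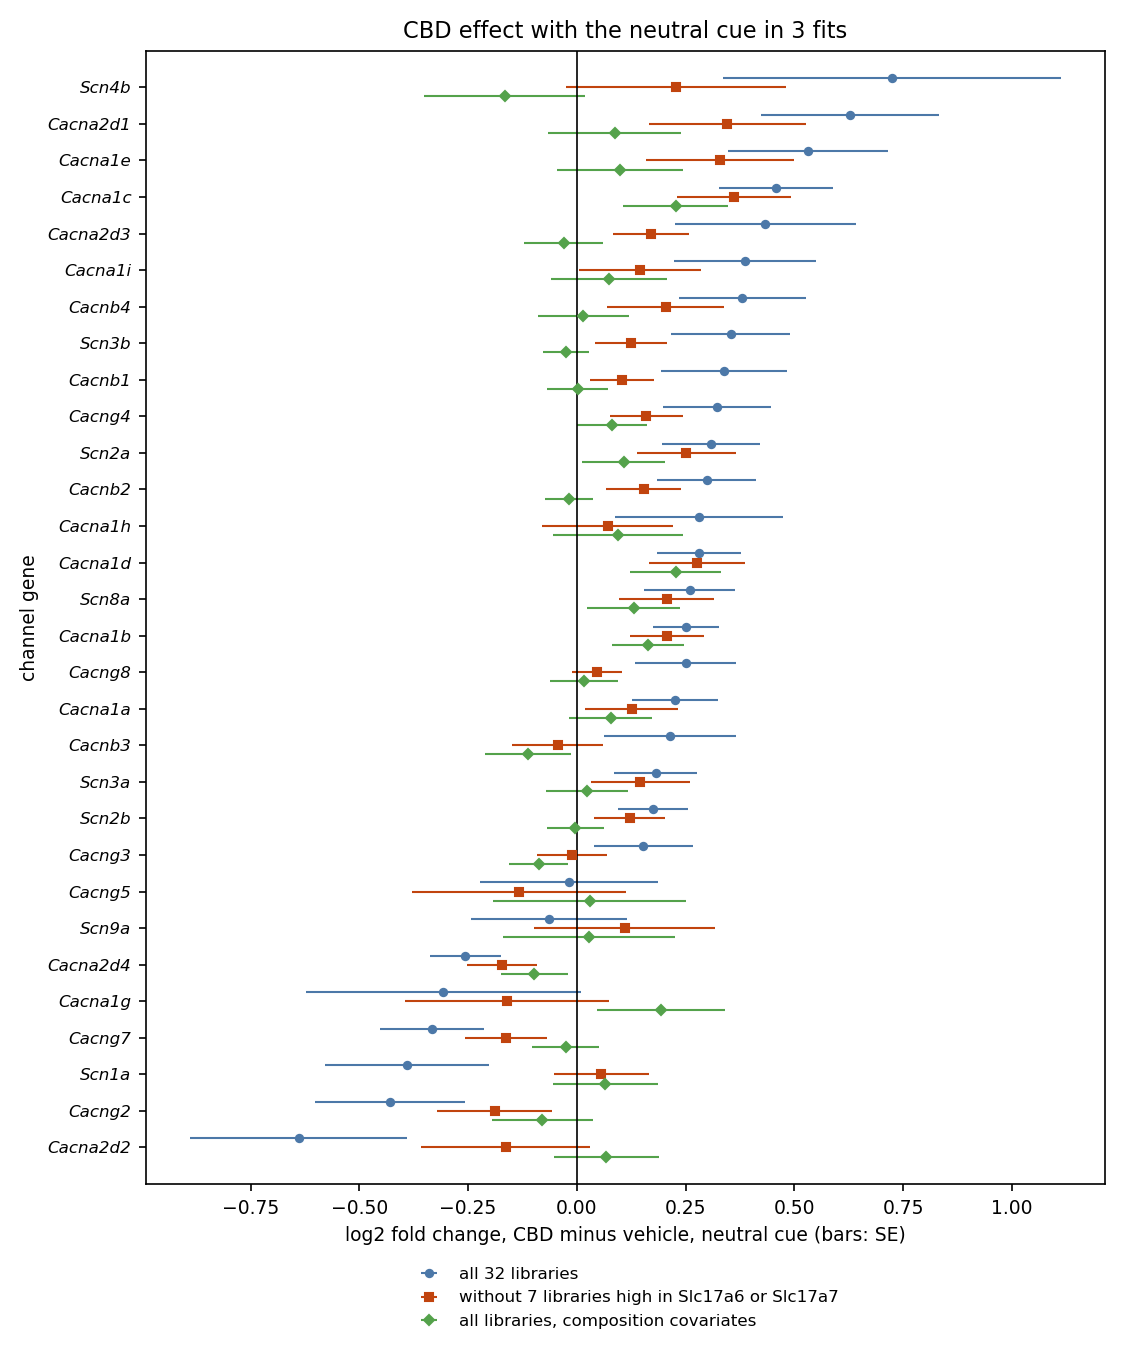
Log2 fold change of 30 channel genes for CBD against vehicle with the neutral cue (x axis; bars are SE) in 3 fits: all 32 libraries, without the 7 libraries high in Slc17a6 or Slc17a7, and with composition covariates. Scn4b moves from 0.72 through 0.23 to -0.17, whereas Cacna1d is between 0.23 and 0.28. Its lowest library, vehicle neutral-cue library 6 (56.9 CPM), is in all 3 fits.

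The second comparison asked what the anxiety cue did in vehicle-treated rats. It shares the vehicle neutral-cue libraries with the first, so the values are set side by side and not correlated. Median levels with the anxiety and the neutral cue were 458 and 315 CPM for Scn4b, 91.7 and 74.3 CPM for Cacnb2 and 69.0 and 56.2 CPM for Cacng4, and, the other way, 34.4 and 55.3 CPM for Cacna1g and 121 and 154 CPM for Cacng7. None of these differences passed the test. EdgeR called 0 of 37 members and 0% of all genes, and 7 members, 6 higher and 1 lower with the cue, had an unadjusted p under 0.05, where all genes gave 12.7% (6.41% higher and 6.34% lower). DESeq2 also called 0, with 8 at an unadjusted p under 0.05 (13.8% of all genes), and voom called 0, with 17 (23.4%). The median was 0.17, against 0.00037 for all genes, and 27 of 37 lay above 0, against 50.1%. For 0 of 37 members were the groups apart (0.00586% of all genes).

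The smallest p-values belonged to Cacng4 (0.35, SE 0.12, edgeR adjusted p = 0.374), Cacna1b (0.20, SE 0.076, adjusted p = 0.374) and Cacnb2 (0.27, SE 0.11, adjusted p = 0.376). Cacng4 was at 35.3 to 63.6 CPM with vehicle and the neutral cue and 41.0 to 79.2 CPM with vehicle and the anxiety cue, and the groups overlapped. Here Scn4b was at 0.59 (SE 0.39), Cacna2d3 at 0.42 (SE 0.21), Scn1a at -0.37 (SE 0.19) and Cacna1g at -0.51 (SE 0.32), with edgeR adjusted p from 0.393 to 0.474. With the composition covariates, Scn4b was at -0.11, Cacna2d3 at 0.017, Scn1a at -0.0047 and Cacna1g at 0.081. In that fit the median of the members was 0.066, and 2 were at an unadjusted p under 0.05 (7.31% of all genes).

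The count at an unadjusted p under 0.05 turned on single libraries, as did the share over all genes, 12.7% with all libraries. The count was 2 without vehicle neutral-cue library 4 or 8 (7.33% and 7.83% of all genes). It was 3 without vehicle anxiety-cue library 3 or 7 (9.49% and 8.91%). It was 15 and 19 without vehicle neutral-cue libraries 2 and 3 (18.2% and 17.8%), and 22 without vehicle anxiety-cue library 5 (25.2%). Libraries 4 and 8 of the neutral-cue group and library 5 of the anxiety-cue group are high in Slc17a6. It was 6 without the 7 libraries high in Slc17a6 or Slc17a7 (11.4% of all genes) and 3 without those high in Alb (5.12%). Without the libraries high in Plin1, 22 were at that p (32.9%) and the median was 0.30. There, 13 members were called, 9 higher and 4 lower (16.9% of all genes), with only 3 vehicle neutral-cue libraries left. With the covariates added to that fit, 0 were called, 8 were at that p (13.3%) and the median was 0.041.

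The third comparison set CBD against vehicle with the anxiety cue, and with all 32 libraries and no covariates edgeR put no channel gene past either limit of p. Median levels with CBD and vehicle were 353 and 458 CPM for Scn4b, 292 and 340.2 CPM for Scn8a and 57.4 and 60.1 CPM for Cacna1c, all within overlapping groups. EdgeR called 0 of 37 members and 0% of all genes, and 0 members were at an unadjusted p under 0.05, where all genes gave 1.58% (0.75% higher and 0.832% lower). DESeq2 called 0, with 0 at an unadjusted p under 0.05 (1.64% of all genes), and voom called 0, with 2 (8.14%). The median was -0.07, and 12 of 37 lay above 0, against 48.3%. The median was -0.05 to -0.036 without vehicle anxiety-cue library 2, 3, 7 or 8, or without CBD anxiety-cue library 2 or 7. It was farther from 0, at -0.17 without the libraries high in Alb, where 7 of 39 lay above 0, and at -0.13 with the composition covariates and without the libraries high in Plin1. With the covariates, 1 member higher and 2 lower with CBD had an unadjusted p under 0.05 (5.28% of all genes), and without the libraries high in Plin1 as well there were 5 (8.35%). Without vehicle anxiety-cue library 5 there was 1 (3.3%). In each of these fits 0 were called. The groups overlapped for every member (0% of all genes were apart). Among the smallest p-values were those of Cacng3 (-0.16, SE 0.11) and Scn8a (-0.14, SE 0.11), each with an edgeR adjusted p of 0.9999. Scn4b, whose median was lower with CBD, had a fitted log2 fold change of 0.0019 with a 95% interval of -0.76 to 0.76, which includes the neutral-cue value of 0.72, and for Cacna1c the interval was -0.27 to 0.24.

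**Figure D4:**
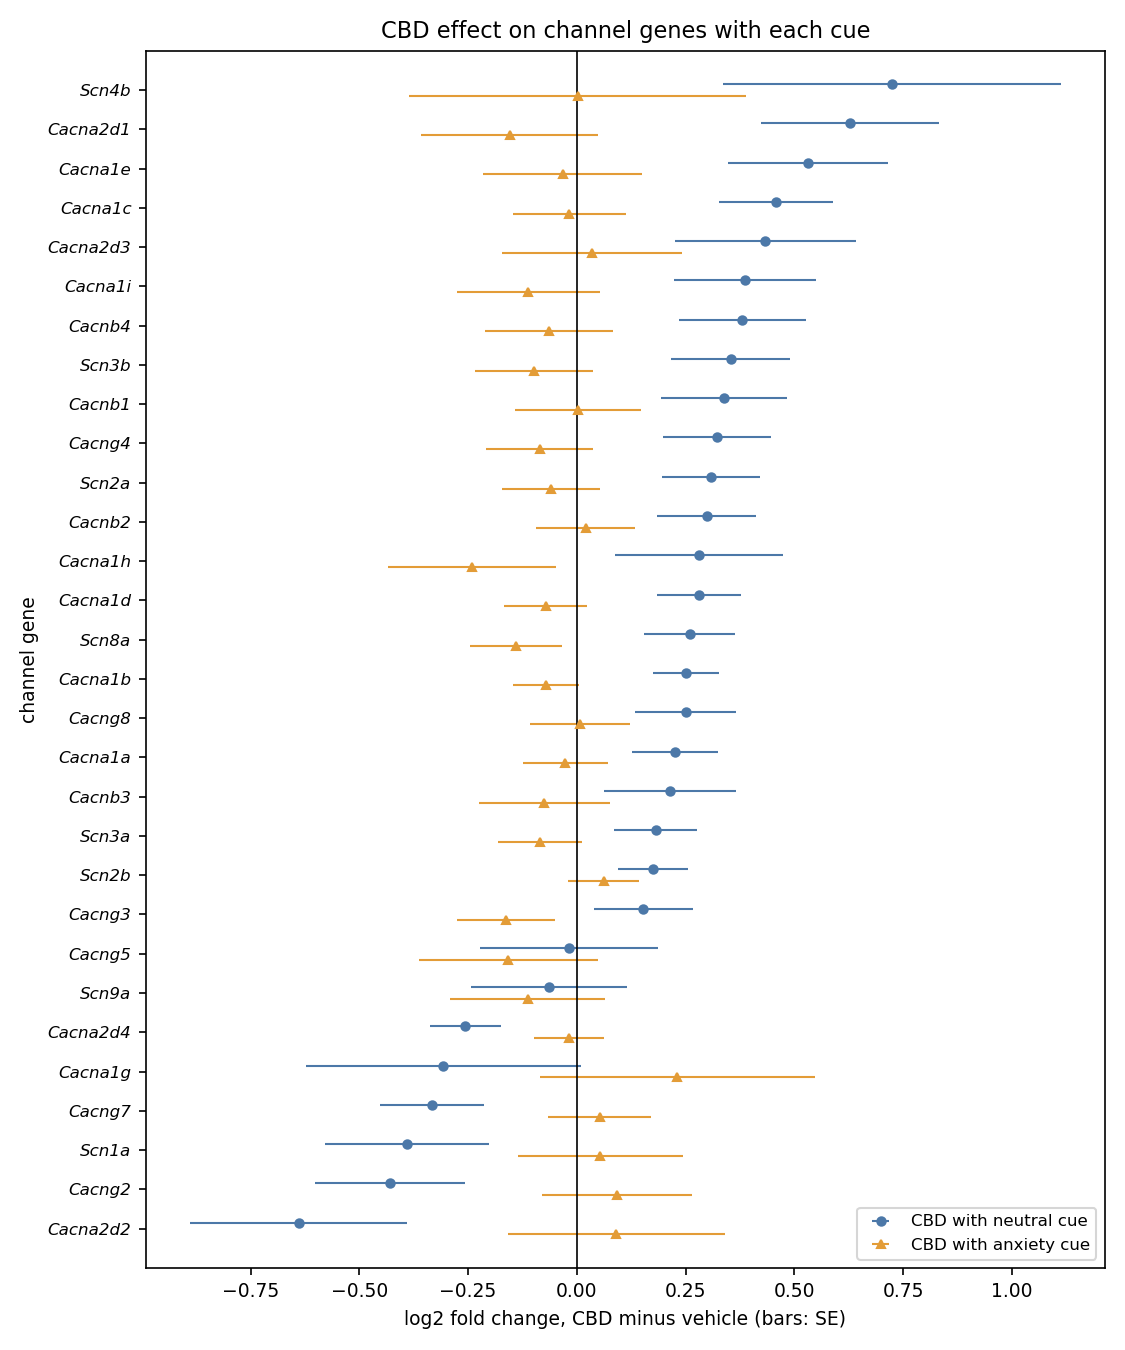
Log2 fold change of the same 30 genes for CBD against vehicle (x axis; bars are SE) with the neutral cue (circles) and with the anxiety cue (triangles). The neutral-cue values spread from -0.64 for Cacna2d2 to 0.72 for Scn4b, and those with the anxiety cue lie between -0.24 for Cacna1h and 0.23 for Cacna1g.

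The difference between these 2 CBD effects was tested as an interaction. EdgeR called 0 of 37 members and 0% of all genes, and 16 members were at an unadjusted p under 0.05, 5 positive and 11 negative, where all genes gave 13.8% (7.02% positive and 6.78% negative). DESeq2 and voom called 0 members, with 16 and 22 at an unadjusted p under 0.05 (14.5% and 23.3% of all genes). The median was -0.29, against -0.0075 for all genes, and 8 of 37 lay above 0, against 48.8%. The smallest p-values were those of Cacna1b (-0.32, SE 0.11), Cacna2d1 (-0.78, SE 0.29) and Scn8a (-0.40, SE 0.15), each with an edgeR adjusted p of 0.321. Cacna2d1 was at 33.6, 71.9 and 85.9 CPM (lowest, median, highest) with vehicle and 71.6, 95.7 and 149 CPM with CBD at the neutral cue. At the anxiety cue it was at 45.6, 84.5 and 122 CPM with vehicle and 57.9, 71.6 and 104 CPM with CBD. All 4 ranges overlapped, and the highest value was that of the library high in Slc17a7.

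The interaction count, 16 with all libraries, rose to 22 without vehicle anxiety-cue library 5 (23% of all genes). It rose to 20 without vehicle neutral-cue library 3 (17.7%). It was 8 without vehicle neutral-cue library 4, where the share over all genes fell from 13.8% to 9.28%. It was 9 without vehicle neutral-cue library 8 (9.95% of all genes) or CBD anxiety-cue library 2 (9.86%) or 7 (share not given here). It was 10 without vehicle anxiety-cue library 7 or 8 (10.7% and 11.4%). It was 3 without the 7 libraries high in Slc17a6 or Slc17a7 and 4 with the composition covariates, where all genes gave 7.48% and 6.59%. The median of the members, -0.29 with all libraries, was -0.13 and -0.096 in these fits. Without the libraries high in Plin1, 7 members were called, 1 positive and 6 negative (8.4% of all genes), with only 3 vehicle neutral-cue libraries left. With the covariates added, 0 were called, 9 were at an unadjusted p under 0.05 (15.4%) and the median was -0.15.

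Within CBD-treated rats, the cue contrast shares its libraries with the CBD contrasts above. EdgeR called 0 of 37 members and 0% of all genes, and 4 were at an unadjusted p under 0.05, all lower with the anxiety cue, where all genes gave 3.94% (2.29% lower). The median was -0.08, and 9 of 37 lay above 0, against 48.8%. It was -0.13 without CBD neutral-cue library 2 and -0.12 without CBD anxiety-cue library 5, and it was -0.19 without the libraries high in Alb, -0.041 without those high in Slc17a6 or Slc17a7 and -0.052 with the composition covariates. DESeq2 and voom called 0, with 4 and 3 at an unadjusted p under 0.05 (4.03% and 7.09% of all genes). The 4 were Scn8a (-0.22, SE 0.11), Scn2a (-0.23, SE 0.11), Cacng5 (-0.43, SE 0.21) and Cacna2d1 (-0.42, SE 0.20), each with an edgeR adjusted p of 0.995. Cacng5, a TARP relative that modulates AMPA receptor gating, was at 11.3 to 29.2 CPM with the neutral cue and 12.4 to 23.1 CPM with the anxiety cue, and the groups overlapped, as they did for every member (0.0117% of all genes were apart). Without CBD neutral-cue library 6, Scn8a was at -0.14 and Scn2a at -0.13, and 0 members were at an unadjusted p under 0.05 (3.44% of all genes). The count was also 0 without CBD neutral-cue library 3 (3.06%) or CBD anxiety-cue library 1 (2.96%) or 4 (3.57%). It was 1 without CBD anxiety-cue library 6 or 7 and highest, at 6, without library 8 (shares over all genes not given here). It was 2 without CBD neutral-cue library 2 (3.56%), 5 (4.75%) or 8 (3.53%) or CBD anxiety-cue library 2 (3.07%). It was 0 without the libraries high in Slc17a6 or Slc17a7 (3.17% of all genes) and 1 without those high in Plin1 (3.21%). With the composition covariates it was 3, 2 higher and 1 lower (4.89%), and with the libraries high in Plin1 also left out it was 7, 2 higher and 5 lower (7.33%).

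Averaged over both treatments, the cue left 1 member, Cacng5 at -0.36 (SE 0.14), at an unadjusted p under 0.05 in edgeR. Over all genes 3.63% were at that p, 1.89% higher and 1.74% lower. EdgeR, DESeq2 and voom called 0 members (0% of all genes in edgeR). In DESeq2 and voom, 1 and 5 were at an unadjusted p under 0.05 (3.84% and 8.89% of all genes). After Cacng5, the next by p in edgeR were Cacnb2 at 0.13 (SE 0.081) and Cacng4 at 0.14 (SE 0.087). The edgeR adjusted p was 0.9997 for all 3. Of the 37, 20 lay above 0, against 48.9%. The count at that p was 2 without CBD anxiety-cue library 2 (4.66% of all genes) and 4 without vehicle anxiety-cue library 5 (6.19%). It was 3 with the composition covariates and 3 without the libraries high in Slc17a6 or Slc17a7 (4.51% and 6.74% of all genes), 0 without those high in Alb (1.74%) and 16 without those high in Plin1 (21.9%). Averaged over both cues, CBD left 4 members, 2 higher and 2 lower, at an unadjusted p under 0.05 in edgeR. Over all genes 7.27% were at that p, 3.16% higher and 4.11% lower. None of the 3 tools called a member (0% of all genes in edgeR). In DESeq2 and voom, 4 and 2 were at an unadjusted p under 0.05 (7.59% and 6.54% of all genes). Of the 37, 21 lay above 0, against 50.2%. Among the 4 were Cacna2d4 at -0.14 (SE 0.057), Cacna1c at 0.22 (SE 0.092) and Scn2b at 0.12 (SE 0.058), with edgeR adjusted p from 0.674 to 0.685. This count was 8 without CBD anxiety-cue library 2 (11.2% of all genes). It was 2 without vehicle neutral-cue library 5 (7.12%), CBD neutral-cue library 8 (6.15%) or vehicle anxiety-cue library 2 (6.09%) or 5 (4.66%). It was also 2 without CBD anxiety-cue library 3 (5.39%) or 8 (share not given here). It was 1 with the composition covariates (3.74% of all genes), 2 without the libraries high in Alb (2.75%) and 11 without those high in Plin1 (15%).

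Genes that work with these channels gave no call either. Of 11 sodium channel partners, 2 were higher and 1 lower with CBD at the neutral cue at an unadjusted p under 0.05, with a median of 0.14. Over all genes 10.5% were higher and 12% lower at that p, so a count of 3 of 11 lay near the background. They included Nedd4l, a ubiquitin ligase that removes sodium channels from the membrane (0.54, edgeR adjusted p = 0.139), and Fgf11, a fibroblast growth factor homologue (-0.28, adjusted p = 0.196). Of 19 calcium channel partners, 4 were higher and 2 lower (median 0.18), among them Rims2, a scaffold of the release site (0.28, adjusted p = 0.177), and Camk2b, a calcium-dependent kinase subunit (0.40, adjusted p = 0.185).

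Of 5 tested genes of the sodium leak channel complex, 1 was higher and 1 lower: Unc79 (0.37, edgeR adjusted p = 0.124), a subunit of the complex, and Fam155b (-0.30, adjusted p = 0.126), related to another. Of 14 genes of calcium stores and extrusion, 5 were higher and 1 lower at that p (median 0.16), beside the same 10.5% and 12% of all genes, with the sodium-calcium exchanger Slc8a2 at 0.50 (adjusted p = 0.124) and the ryanodine receptor Ryr3 at 0.47 (adjusted p = 0.146). For the cue in vehicle, the same 4 lists had 1, 2, 0 and 1 genes higher and 0, 0, 1 and 0 lower at an unadjusted p under 0.05, beside 6.41% and 6.34% of all genes. With CBD at the anxiety cue, 0 genes of these lists were at an unadjusted p under 0.05 by edgeR, and 0 were called.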

How the data were processed

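RNA was extracted with a Zymo kit and sequenced by Azenta after polyA selection, per the labels' protocols. The values are whole-number read counts per gene symbol, as the authors deposited them; STAR, featureCounts and DESeq2 and the builds mRatBN7.2 and Rnor_6.0 are named in the submitters' processing notes, without versions or roles. All 32 columns were mapped to libraries by title. No 2 of the 112 within-group pairs were identical (chi-square per degree of freedom 5.56 to 112).

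Here, edgeR 4.0.16 (R 4.3.3) fitted all 32 libraries by quasi-likelihood, with 1 mean for each group, after filterByExpr and TMM. Adjusted p-values are Benjamini-Hochberg values over 17059 genes, with a threshold of 0.05. The SE is the log2 fold change divided by the root of F, and 95% intervals use it. DESeq2 1.42.0, voom of limma 3.58.1, other filters, left-out libraries and composition covariates were alternatives. The pipeline was tested on simulated data. Every channel gene could be given by level; fold changes were given for the 3 with the smallest p per comparison and those called, and for other genes chosen after their values were seen. Counts and medians cover all channel genes, but the values of some are not reported here. The channel genes and lists were chosen with earlier results of these data known. Names, gene order and promoters came from RefSeq tables of GRCr8, in which 40 and 27 of the 40 genes had an entry.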

Additional observations from a re-analysis of the deposited data

Results flagged for a closer look

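In a group of 8 libraries, a highest or lowest value was marked when its gap to the nearest other library took more of the group's range than Dixon's 95% critical value allows. Chance alone marks about 1 in 20 groups. Over 14 channel genes in 4 groups, 12 values were marked, and 5 of these came from vehicle anxiety-cue library 5, which is high in Slc17a6. The 14 were picked from these data, by a small p in a comparison or after their values were seen. They were measured in the same libraries, so the rate of 1 in 20 is no measure for this count.

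In that library Cacna1g was at 85.0 CPM (the 7 others at 22.4 to 48.9), Cacna2d3 at 106 CPM (249 to 299.6), Cacng3 at 29.9 CPM (40.2 to 49.1), Cacng4 at 41.0 CPM (63.0 to 79.2) and Scn1a at 256 CPM (104 to 173). CBD neutral-cue library 6, high in Slc17a7, stood apart in Cacna1g at 107.5 CPM (24.9 to 50.3), Scn2a at 473 CPM (283 to 372) and Scn8a at 463 CPM (301 to 373). Vehicle anxiety-cue library 2 was highest in Cacng5 at 39.1 CPM (11.1 to 22.6). Its Plin1 level was 15.9 CPM. Library 3 of that group, the lowest in Cacng5, had Plin1 at 21.8 CPM, and a link between the 2 genes was not tested. Vehicle neutral-cue library 6 was lowest in Cacna1b at 110 CPM (148 to 171). CBD neutral-cue library 5 was highest in Cacna1c at 81.1 CPM (62 to 67.9), and CBD anxiety-cue library 2, high in Slc17a6, in Cacna2d4 at 27.2 CPM (19.7 to 23.0).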

How the results depend on the processing

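No paired analysis was possible because the labels give no replicate numbers shared between groups. In edgeR, 0 channel genes were called in each of the 7 comparisons, and leaving out any single library also gave 0 in each (range 0 to 0). The calls changed in these settings: DESeq2 called 1 member for CBD with the neutral cue (2.05% of all genes). Without the libraries high in Plin1 there were 13 for CBD with the neutral cue (15.7% of all genes), 13 for the cue in vehicle (16.9%) and 7 for the interaction (8.4%). These comparisons then rest on only 3 vehicle neutral-cue libraries, of which 7 and 8 are high in Slc17a6.

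Among the genes and comparisons followed through all settings, the direction turned only for the 4 genes Scn4b, Cacna2d3, Scn1a and Cacna1g. Those followed came from the 3 members with the smallest p per comparison and these 4, which were added after their values were seen. Members not followed turned as well. For the cue within CBD-treated rats, 9 lay above 0 with all libraries and 14 with the composition covariates. Cacna1d, Scn2b, Cacna2d1 within CBD-treated rats and the partner genes were not followed this way. For the cue in vehicle, composition covariates gave Scn4b -0.11 and Cacna1g 0.081, and covariates without the libraries high in Plin1 (chosen after seeing the data) gave Scn4b -0.12, Cacna2d3 -0.016, Scn1a 0.0034 and Cacna1g 0.76. For CBD with the neutral cue, the covariates gave Scn4b -0.17, Cacna2d3 -0.030, Scn1a 0.066 and Cacna1g 0.19, and with the libraries high in Plin1 also left out -0.14, -0.064, 0.071 and 0.88. Scn1a was at 0.056 without the libraries high in Slc17a6 or Slc17a7. Apart from Cacna1g at 0.76 and 0.88, the turned values were smaller than the gene's SE with all libraries (0.19 to 0.39). That SE comes from a different fit, so it does not give the error of the turned values. The cause of the turns was not tested. TMM against DESeq2 size factors and the 2 other filters changed no call. Depth limits Cacna1s, Scn11a and Scn4a, with at most 18, 18 and 22 counts in a library.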
